A study of Mus musculus with 8 samples.

Results

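The 8 genes described here encode proteins of the seminal vesicle secretion. They are Svs1, Svs2, Svs3a, Svs3b, Svs4, Svs5 and Svs6, and Pate4, which has also been named Svs7. They were chosen by name and are 8 of the 54532 gene identifiers in the count table, each matched through its Ensembl identifier to a symbol of the GENCODE M21 annotation. The members were proposed with the counts of these same 8 mice known, so their levels and fold changes are given as a description.

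Prostate tissue was taken from 8 NOD mice at 30 weeks of age, 4 control mice that received PBS and 4 mice that received etanercept. NOD is an inbred strain that develops autoimmune disease, and the study pooled diabetic with non-diabetic animals within its treatment groups; the diabetic status of the sequenced mice is not given in the sources used here. Etanercept, a TNF receptor fusion protein that captures TNF, was injected at 4 mg/kg, 2 times a week, over 5 weeks. Which lobes each sample held is not given in the sources used here. Poly(A)-selected RNA of each prostate was sequenced as 1 library, with total counts between 13760669 and 25178942. Each mouse is named by its group with its animal number, the control mice being 1, 3, 65 and 69 and those given etanercept 17, 19, 50 and 52. The labels name no batch. Levels are counts per 1000000 counts (CPM) after TMM scaling, and a count of 3, taken as the floor of detection, was worth between 0.108 and 0.211 CPM. The labelled tissue was checked on 8 genes of prostate identity, among them Hoxb13 and Pbsn. All 8 passed the filter on low counts, and their summed level was between 3823 and 11501.6 CPM in the control mice and between 3984 and 9872 CPM in the etanercept-treated mice.

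In rodents the seminal vesicles lie beside the anterior prostate and release a protein-rich fluid into the urethra. At ejaculation its proteins are cross-linked by the transglutaminase Tgm4, which the prostate secretes, and form the copulatory plug. Several Svs genes arose by duplication within one cluster and evolve quickly, and their expression depends on androgen.

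The members Svs2 to Svs6 lie in one cluster on chromosome 2 (build GRCm38), which spans 98468 bases from 164235929 to 164334396. The order along the chromosome is Svs2, Svs3b and Svs4 on the minus strand, then Svs3a, Svs6 and Svs5 on the plus strand. Svs2 lies at chr2:164235929-164238466, Svs3b at chr2:164254363-164256640, Svs4 at chr2:164275952-164278459, Svs3a at chr2:164289268-164291500, Svs6 at chr2:164316751-164318453 and Svs5 at chr2:164332740-164334396. Svs1 lies apart at chr6:48986861-48991722 on the plus strand, and Pate4 at chr9:35607093-35611941 on the minus strand. All 8 are annotated as protein-coding, with between 3 and 5 exons, and the values are read counts over the exons. The cluster holds 1 pair of close copies, Svs3a and Svs3b. The longest coding transcripts of Svs3a and Svs3b were 88.9% identical, and 21.1% of the stretches of 150 bases in the Svs3a transcript occurred unchanged in that of Svs3b, so the division of reads between this pair is uncertain. Svs5 and Svs6 were alike before their start sites but not over the transcript, where they were 57.4% identical, against 52.3% for Svs4 and Svs5, and shared 0% of such stretches. On the opposite strand, Pate2 overlaps 20.2% of the exon length of Pate4 and the antisense gene 4930563H07Rik overlaps 3.1% of that of Svs1. Pate2 held 26 counts, all of them in control 1, and 4930563H07Rik held 0, so neither gene shared the pattern of its partner.

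The sequences before the start sites are shown for Svs5 with Svs6 and for Svs3a with Svs3b, because each pair has nearly the same upstream sequence while the levels of Svs5 and Svs6 lay far apart. The stretches are from RefSeq (GRCm38.p6), are written 5′ to 3′ on the strand of the gene, and end at the gene's first annotated base or before it. Capitals mark 2 motifs. The first is AGAACA, a half-site of the androgen receptor, which reads TGTTCT where it lies on the other strand. The second is GATAAG, a site for transcription factors of the GATA family, which reads CTTATC where it lies on the other strand. Svs5 is at chr2:164332515-164332739, Svs6 at chr2:164316501-164316750 and Svs3a at chr2:164289017-164289266, all on the plus strand, and Svs3b is at chr2:164256644-164256893 on the minus strand.
Svs5: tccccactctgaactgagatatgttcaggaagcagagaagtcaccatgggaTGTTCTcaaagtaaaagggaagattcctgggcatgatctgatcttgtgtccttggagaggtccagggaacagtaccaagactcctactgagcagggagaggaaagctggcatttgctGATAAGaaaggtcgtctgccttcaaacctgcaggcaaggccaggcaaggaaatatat
Svs6: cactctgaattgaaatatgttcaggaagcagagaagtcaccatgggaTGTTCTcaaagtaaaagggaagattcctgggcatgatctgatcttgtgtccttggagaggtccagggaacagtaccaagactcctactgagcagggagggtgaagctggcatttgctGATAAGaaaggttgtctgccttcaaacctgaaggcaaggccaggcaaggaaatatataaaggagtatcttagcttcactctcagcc
Svs3a: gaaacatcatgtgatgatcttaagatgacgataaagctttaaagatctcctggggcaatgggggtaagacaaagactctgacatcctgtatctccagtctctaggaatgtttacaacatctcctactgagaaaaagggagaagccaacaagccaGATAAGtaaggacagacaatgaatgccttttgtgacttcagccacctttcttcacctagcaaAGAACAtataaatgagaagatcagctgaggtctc
Svs3b: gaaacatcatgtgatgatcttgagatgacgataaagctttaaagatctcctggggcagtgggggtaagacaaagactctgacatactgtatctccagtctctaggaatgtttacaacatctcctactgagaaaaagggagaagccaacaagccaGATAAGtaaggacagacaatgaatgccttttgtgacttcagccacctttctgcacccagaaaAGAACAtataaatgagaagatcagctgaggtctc
Over the 250 bases before the RefSeq start, Svs5 and Svs6 were 93.3% identical and Svs3a and Svs3b were 97.6% identical. Distances are counted from the RefSeq start. For Svs5 this start lies inside the GENCODE gene, so the stretch printed for Svs5 holds 225 of the 250 bases and stops short of it. The half-site stood 199 bases before the start of Svs5 and 203 before that of Svs6, and 34 bases before the starts of Svs3a and Svs3b. The GATA site stood 82 and 86 bases before the starts of Svs5 and Svs6, and 96 bases before those of Svs3a and Svs3b. Both motifs were searched on both strands and do not overlap each other. Of the 7 members in the RefSeq table (all but Pate4), 5 held the half-site, against 16.2% of 27025 promoters of the same length, and 5 held the GATA site, against 6.6%. Svs2 held neither motif, Svs4 held the GATA site alone and Svs1 the half-site alone. The letters TATAAA, searched on the strand of the gene only, were found in 6 of the 7 members and in 8.12% of all promoters. They began 28 bases before the starts of Svs3a, Svs3b, Svs4 and Svs5 and 32 before that of Svs6. A further match lay 182 bases before the start of Svs4, and in Svs2 they lay 205 and 236 bases away. The RefSeq starts of Svs2 and Svs4 lie inside the GENCODE gene, with 125 and 98 of the 250 bases before it. These distances therefore depend on the start used. The promoters within a pair are not independent of each other, and a match in these windows is a description of the letters only.

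The members' expression was dominated by single mice. Together they held 9.41% of all counts in etanercept 17, 0.366% in control 69 and 0.0641% in etanercept 50. They held 0.00278% in control 65, 0.00273% in etanercept 52, 0.000416% in etanercept 19 and 5.96e-05% in control 1, and no count in control 3, where the total allows a share of up to 2.13e-05%. The Wilson 95% interval was 9.39% to 9.42% in etanercept 17 and 0.364% to 0.369% in control 69, so the difference between these mice was far beyond counting error. These intervals, and the floors, take in counting error alone. The share of control 1 and control 3 was below that of the other 6 mice. The mean share was 0.0923% ± 0.183 in the control mice and 2.37% ± 4.69 in the etanercept-treated mice (SD, n = 4 each), with an SD above the mean in both. Without etanercept 17 the mean of its group was 0.0224%, and without control 69 that of the control group was 0.000948%. Since RNA came from bulk tissue, a difference in the number of secretory cells and one in RNA per cell cannot be told apart.

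**Figure D1:**
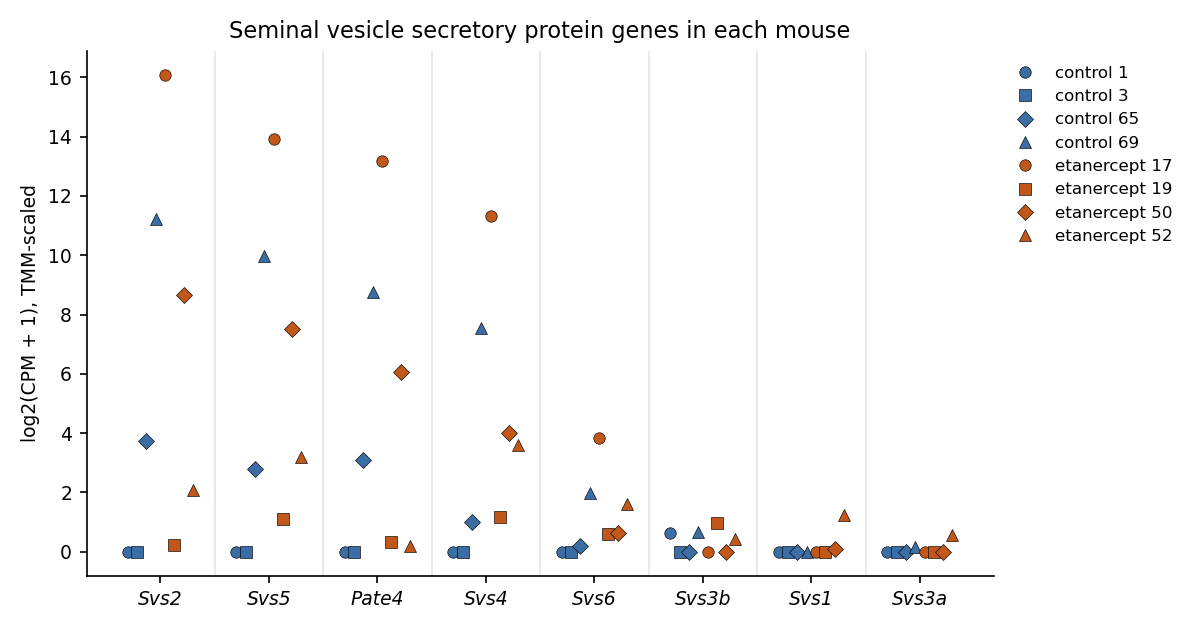
Level of each member in each mouse, as log2(CPM + 1) with a pseudocount of 1; blue symbols are the 4 control mice and orange symbols the 4 etanercept-treated mice, and each symbol is 1 mouse. Etanercept 17 is highest for Svs2, Svs5, Pate4, Svs4 and Svs6, control 69 is second for these 5 genes, and Svs3b, Svs1 and Svs3a stay below 2 on this scale in all 8 mice.

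Svs2 is the main clotting protein of the mouse plug and also binds to sperm. Its count was 0, 0, 177 and 41018 in control 1, 3, 65 and 69, and 1197702, 3, 6737 and 47 in etanercept 17, 19, 50 and 52. The groups overlapped: etanercept 17 lay above all other mice, control 69 above the other 3 etanercept-treated mice, and control 1 and 3 had no count, which cannot be told from the 3 counts of etanercept 19. In CPM, Svs2 reached 69634.1 in etanercept 17, which was 29.4 times the level in control 69 (2370). It took 6.75% of all counts in etanercept 17 and was the gene with rank 2 by count there, against rank 18 in control 69 and rank 267 in etanercept 50.

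Svs5 encodes a small secreted protein of the same rapidly evolving family. Its count was 0, 0, 84 and 17362 in control 1, 3, 65 and 69, and 266515, 22, 3075 and 119 in etanercept 17, 19, 50 and 52. The 3 highest mice were those of Svs2, in the same order, and the groups overlapped. The highest level was 15495.1 CPM in etanercept 17, 15.4 times that in control 69 (1003 CPM).

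Pate4 is a small secreted protein of the Ly6 and uPAR superfamily that coats sperm and is known for blocking their uptake of calcium. Although its gene is on another chromosome than the cluster, it was high in the same mice. Its count was 0, 0, 106 and 7512 in control 1, 3, 65 and 69, and 160424, 5, 1097 and 2 in etanercept 17, 19, 50 and 52. Etanercept 17 was again highest (9327 CPM), 21.5 times control 69 (434 CPM), and etanercept 19 and 52 were near the floor (0.267 and 0.138 CPM). RefSeq lists 14 PATE genes, and the 13 others are in the table, most of them under older symbols; Pate6, Pate8 and Pate9 are named here after their values were seen. Pate8 (Gm17689) had 3377 counts in etanercept 17 (196 CPM), 74 in control 69 (4.28 CPM) and at most 7 in any other mouse. Pate8 was thus highest in the same 2 mice as Pate4. Pate6 (D730048I06Rik) was 46.6 CPM in etanercept 17 but 0.578 CPM in control 69, with 9.35 CPM in control 1, and Pate9 (Gm5615) was between 121 and 986 CPM, lowest in control 69 and highest in etanercept 52. None of the remaining 10, Pate1, Pate2 and Pate3 among them, had a count in etanercept 17 or control 69.

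Svs4 encodes a small basic secretory protein known for effects on immune cells and sperm. Its count was 0, 0, 14 and 3179 in control 1, 3, 65 and 69, and 44081, 24, 252 and 159 in etanercept 17, 19, 50 and 52. The 2 highest mice were again etanercept 17 (2563 CPM) and control 69 (184 CPM). Etanercept 52 had 11 CPM of Svs4, close to the 15 CPM of etanercept 50, although Svs2 was 402 CPM in etanercept 50 and 3.25 CPM in etanercept 52.

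Svs6, whose upstream sequence is close to that of Svs5, was low in every mouse. Its count was 0, 0, 2 and 51 in control 1, 3, 65 and 69, and 227, 10, 9 and 30 in etanercept 17, 19, 50 and 52. The highest level was 13.2 CPM in etanercept 17, 4.48 times control 69, so that the spread among mice was narrower than that of Svs5. Per kilobase of exon, the level of Svs5 was 972 times that of Svs6 in etanercept 17, 282 times in control 69 and 283 times in etanercept 50, but 1.82 times in etanercept 19 and 3.29 times in etanercept 52.

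The 3 remaining members were low in every mouse, with at most 20 counts. Svs1, an amine oxidase-like protein that is a plug component, had 20 counts in etanercept 52, 1 in etanercept 50 and none in the other 6 mice. Svs3a and Svs3b encode transglutaminase substrates of the plug. Svs3a had 7 counts in etanercept 52 and 2 in control 69, and Svs3b had 15, 0, 0 and 10 in the control mice and 0, 18, 0 and 5 in the etanercept-treated mice, in the order used above. In etanercept 17, where Svs2 had 1197702 counts, none of these 3 genes had any, which allows up to 0.174 CPM each. The groups overlapped for each of the 8 members, against 4.94% of the 15472 tested genes whose groups did not overlap.

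The composition of the signal also differed among mice. As a share of the members' summed level per kilobase of exon, Svs2 was 49.2% in etanercept 17, 35% in control 69, 35.6% in etanercept 50 and 26.1% in control 65. Svs5 made up 33.6%, 45.5%, 49.9% and 38.1% of it in the same 4 mice, and Pate4 12.2%, 11.9%, 10.7% and 29%. In these mice Svs2, Svs5 and Pate4 therefore led, although the members' summed level was 26.9 CPM in control 65 and 97032.2 CPM in etanercept 17. In etanercept 19 and 52, Svs2 was only 1.42% and 4.73%, whereas Svs4 was 30.9% and 43.5% and Svs6 was 17.6% and 11.2%. The count behind these shares is 82 in etanercept 19 and 389 in etanercept 52, against 383 in control 65. Control 65 was led by the same 3 genes as the high mice but with more Pate4: its ratio of Svs2 to Pate4 counts was 1.67, against 5.46 in control 69, 6.14 in etanercept 50 and 7.47 in etanercept 17. The ratio of Svs2 to Svs5 counts was 2.11 in control 65, 2.36 in control 69 and 2.19 in etanercept 50. It was 4.49 in etanercept 17, and 0.136 and 0.395 in etanercept 19 and 52. The first 3 of these mice thus held the 2 genes in almost the same ratio at counts of Svs2 from 177 to 41018.

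**Figure D2:**
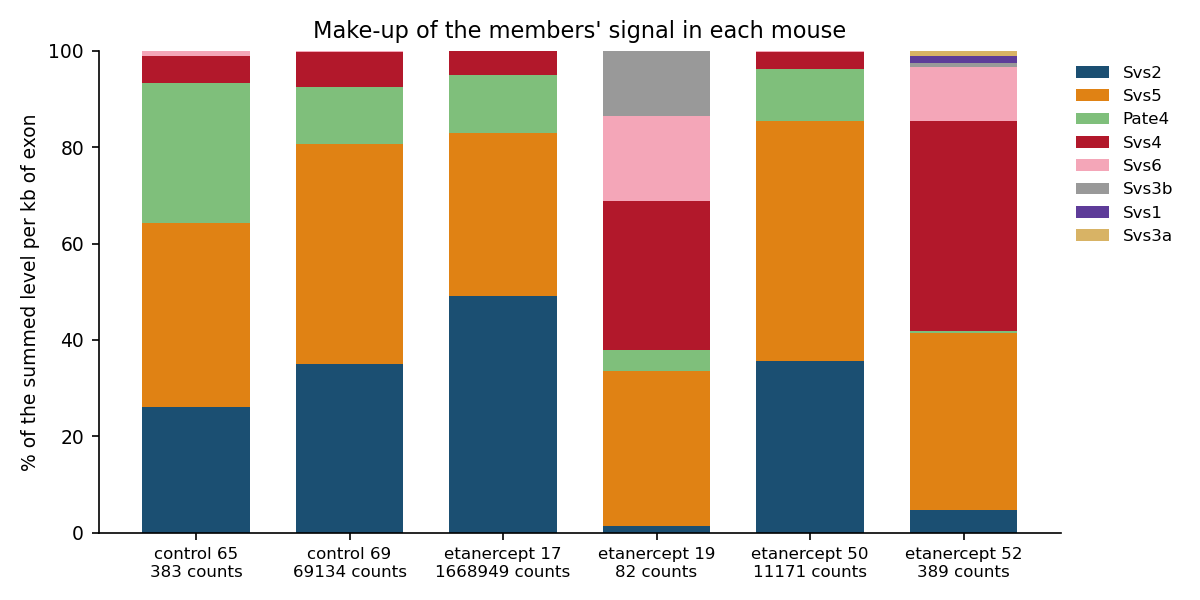
Share of each member in the members' summed level per kilobase of exon (%), in the 6 mice with more than 15 counts over the members; the number under each bar is the members' count. Svs2, Svs5 and Pate4 fill most of the bar in control 65, control 69, etanercept 17 and etanercept 50, whereas Svs4, Svs5 and Svs6 lead in etanercept 19 and 52.

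Across the 8 mice, the log2(CPM + 1) of Svs2 had a Pearson's r of 0.994 with Svs5, 0.992 with Pate4, 0.949 with Svs4 and 0.837 with Svs6. Spearman's rho was 0.976, 0.976, 0.928 and 0.88. Without control 69 and etanercept 17, which lay farthest from the median of Svs2, r was 0.971 with Svs5, 0.97 with Pate4, 0.746 with Svs4 and 0.205 with Svs6. The r of Svs2 with Svs6 thus fell without those 2 mice, where Svs6 had at most 30 counts, while those with Svs5 and Pate4 stayed high. Among the remaining mice, etanercept 50 had 402 CPM of Svs2 and the rest at most 12.45 CPM. Leaving out etanercept 50 as well was not tried. Svs4 had an r of 0.961 with Svs6, and 0.791 without the same 2 mice. Svs3b did not follow this pattern (r of -0.341 with Svs2). These values describe 8 libraries with shared depth and scaling, and no p is attached to them.

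To compare etanercept-treated with control mice, edgeR's quasi-likelihood test was run over 15472 genes, and 0 genes passed an adjusted p of 0.05, which is 0% of them (smallest adjusted p = 0.739). At an unadjusted p of 0.05, 1024 genes passed, which is 6.62%, and DESeq2 called 21 of 17427 genes, which is 0.121%. Of the members, Svs2, Svs4, Svs5 and Pate4 passed the filter on low counts, whereas Svs1, Svs3a, Svs3b and Svs6 did not and have no value in this fit. None of the 4 tested members reached an unadjusted p of 0.05 with all 8 mice. The log2 fold change of etanercept over control was 4.88 ± 3.57 (SE) for Svs2 (adjusted p = 0.854, edgeR) and 3.81 ± 2.68 for Svs4 (adjusted p = 0.846, edgeR). It was 3.96 ± 3.06 for Svs5 (adjusted p = 0.868, edgeR) and 4.41 ± 3.17 for Pate4 (adjusted p = 0.849, edgeR). The median over all tested genes was -0.01. These fold changes were large but within 2 SE of 0, and the filter kept the members with high counts in some of the mice, so their number is no measure of the whole group. DESeq2 gave fold changes of 4.85, 3.78, 3.93 and 4.38 for Svs2, Svs4, Svs5 and Pate4 but no p, which it sets to missing for genes with an extreme count. For Svs6 it gave 2.38 ± 1.55 (SE, adjusted p = 0.808) and for Svs3b 0.18 ± 2.33 (SE, adjusted p = 0.9999). For Svs1 and Svs3a, which have 21 and 9 counts in all, it gave 5.12 ± 3.4 and 1.98 ± 3.4 (SE) with no adjusted p.

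The direction of the comparison depended on 1 mouse. Without etanercept 17 the log2 fold change was -2.14 for Svs2, -1.97 for Svs5, -2.33 for Pate4 and -2.34 for Svs4, with the control mice higher. Without control 69 it was 12.1, 11, 9.93 and 11.2 for the same genes, with adjusted p between 0.317 and 0.401 and unadjusted p between 0.00829 and 0.0351 (edgeR), so that all 4 were under an unadjusted p of 0.05 in that setting, as were 11.4% of the 15975 genes tested there. Leaving out any of the other 6 mice moved it less. Without both of these mice, a setting chosen after the values were seen, it was 5.08 for Svs2, 5.12 for Svs5 and 4.9 for Svs4 (adjusted p = 0.368, 0.285 and 0.202, unadjusted p = 0.0834, 0.0427 and 0.0133, edgeR, with 16.5% of 15558 genes under an unadjusted p of 0.05), while Pate4 no longer passed the filter. In that setting the remaining 3 etanercept-treated mice had between 3 and 6737 counts of Svs2, and the remaining 3 control mice between 0 and 177.

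**Figure D3:**
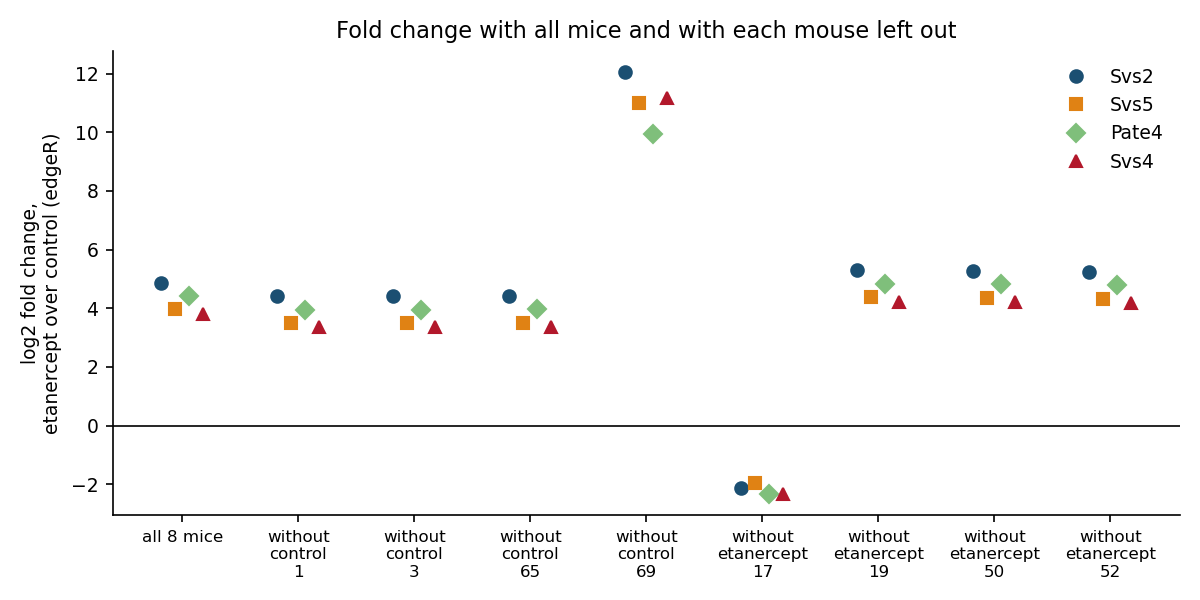
Log2 fold change of etanercept over control in edgeR for the 4 members that passed the filter, with all 8 mice and with each mouse left out; each symbol is a gene and the line marks no difference. Values lie between 3.81 and 4.88 with all mice, lie below 0 without etanercept 17 and lie between 9.93 and 12.1 without control 69.

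Around the cluster on chromosome 2, 27 other genes lie within 250 kb, of which 13 were tested and 0 were called, with 2 higher (Wfdc15b and Wfdc6a) and 2 lower (Slpi and Wfdc2) at an unadjusted p of 0.05, which 6.62% of all tested genes passed. Their median log2 fold change was -0.18. Many of them encode whey acidic protein domain protease inhibitors. Wfdc15b, next to Svs2, had 84.5 CPM in etanercept 17, where no other mouse exceeded 1.96 CPM, a gene named here after its values were seen. Slpi, a secreted inhibitor of serine proteases on the other side of the cluster, was 134 CPM in etanercept 17 and 24 CPM in control 69, with 567 CPM in control 3, which had no count of any member. The pattern of the members was thus not shared by Slpi, and Ywhab, Sdc4 and Pigt, the other neighbours with the highest mean level, each differed by less than 3-fold among the 8 mice.

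**Figure D4:**
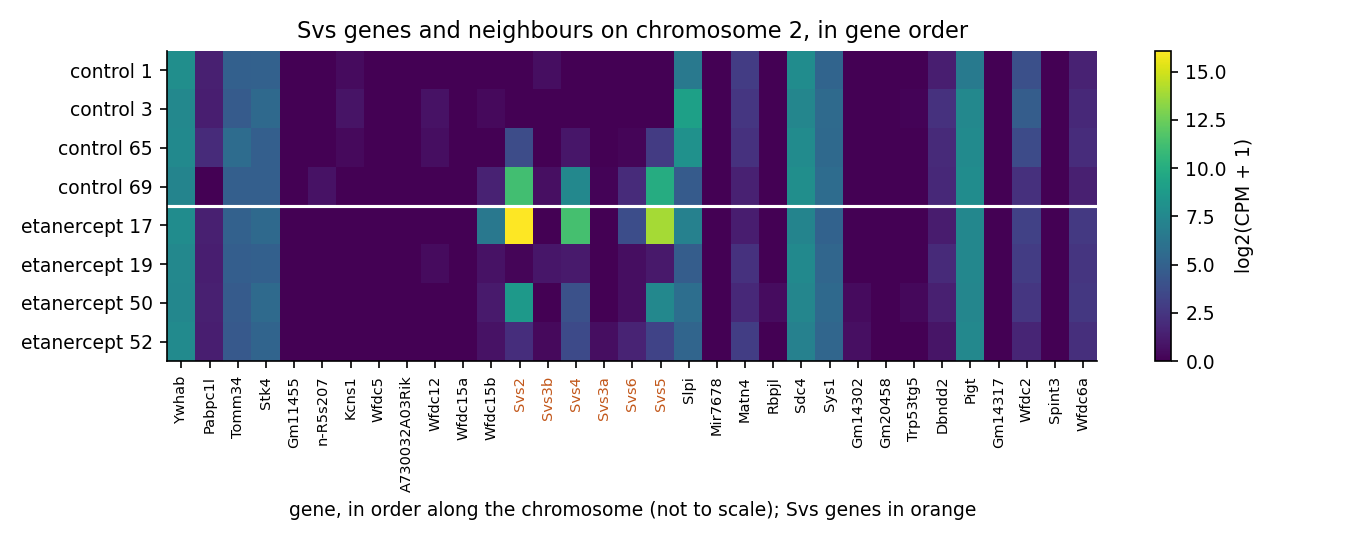
Level of the Svs genes (orange names) and their neighbours on chromosome 2 as log2(CPM + 1), with mice in rows (control above the white line, etanercept below it) and genes in chromosomal order. Svs2, Svs4 and Svs5 are bright in etanercept 17 and control 69, Svs3b and Svs3a between them stay dark in every mouse, and outside the Svs genes Wfdc15b stands out in etanercept 17.

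Other genes of the seminal vesicle secretion did not all share the pattern. Of 9 listed genes, 7 are in the table under these symbols (Pate10 and Pate14 are among the PATE genes above), 2 were tested and 0 were called. Serpine2, a serine protease inhibitor of seminal fluid that is also made elsewhere, was 896 CPM in etanercept 17, 72.7 CPM in control 69 and no more than 210 CPM in any other mouse (log2 fold change 1.07 ± 0.75, SE, adjusted p = 0.846, edgeR). Sva, Sval2 and Sval3 had no count in any mouse, and Sval1 had 3 counts, in etanercept 50. Ceacam10 was between 0.422 and 5.12 CPM and did not stand out in etanercept 17 (2.79 CPM). Spinkl had no count in etanercept 17 or control 69.

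Genes that act on the clot were compared with the members. Of 9 such genes in the table, 8 were tested and 0 were called, with 1 lower (Slpi) at an unadjusted p of 0.05, against 6.62% of all tested genes, and a median log2 fold change of 1.13, against -0.01 over all tested genes. Tgm4, the transglutaminase that cross-links the plug, was 5571 CPM in etanercept 17 but 366 CPM in control 69, and was highest in etanercept 52 (8425 CPM), where Svs2 was 3.25 CPM. Plau, the urokinase-type plasminogen activator, was 351 CPM in etanercept 17 and 32.8 CPM in control 69, and between 6.03 and 13 CPM in the other 6 mice. Plau was thus highest in the same 2 mice as the members, whereas Tgm4 was not.

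The level of the members was set beside markers of the prostate lobes and of the neighbouring ducts. The ventral lobe genes Sbp, Sbpl, Spink1 and Msmb summed to 2032 CPM in etanercept 17 and 2036 CPM in control 1, the 2 lowest values, and to 270492.9 CPM in control 69, the highest. This sum is mostly Sbp (225361.3 CPM in control 69), and Msmb, at 582 CPM in control 69 and 1268 CPM in control 3, had another order. The 2 mice with the highest level of the members lay at opposite ends of the sum, and control 1, with almost no count of the members, lay beside etanercept 17. The secretory genes of the dorsal, lateral and anterior lobes summed to 14788.7 CPM in etanercept 17 and to 3345 CPM in control 69, within a range of 3345 to 19944.6 CPM over all mice. The genes of this list did not all follow its sum. Pbsn was 7206 CPM in etanercept 17 and 1092 CPM in control 69. Apof was 81.7 and 314 CPM in the same 2 mice, and Crabp1 was 3.26 and 328 CPM. Apof and Crabp1 are named here after their values were seen. All 4 ventral lobe genes and all 9 of the other lobes were tested, and 0 were called. At an unadjusted p of 0.05, 1 gene of the other lobes was lower (Ren1), a threshold that 6.62% of all tested genes passed.

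The 10 markers of vas deferens and epididymis summed to 356 CPM in control 69, 36.1 CPM in etanercept 17 and 12.1 CPM or less in each other mouse. Akr1b7, an aldo-keto reductase of the vas deferens, was 301 CPM in control 69 and 32.7 CPM in etanercept 17, with at most 0.854 CPM elsewhere. Crisp1, a secretory protein of the epididymis, was 50.9 CPM in control 69 and 1.45 CPM in etanercept 17. Pax2, a transcription factor of the ducts of the male tract, was 2.25 and 1.98 CPM in the same 2 mice and at most 0.32 CPM in the others. Adam7 had another order. It was highest in etanercept 19 (10.9 CPM), where the members had few counts, with 0.924 CPM in control 69 and no count in etanercept 17. The epididymal markers Lcn5, Lcn8, Spag11b, Cst11, Crisp4 and Rnase10 had no count in any mouse. In etanercept 50, with 402 CPM of Svs2, the list summed to 4.54 CPM, all of it Adam7. What part these markers have in the level of the members was not tested.

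**Figure D5:**
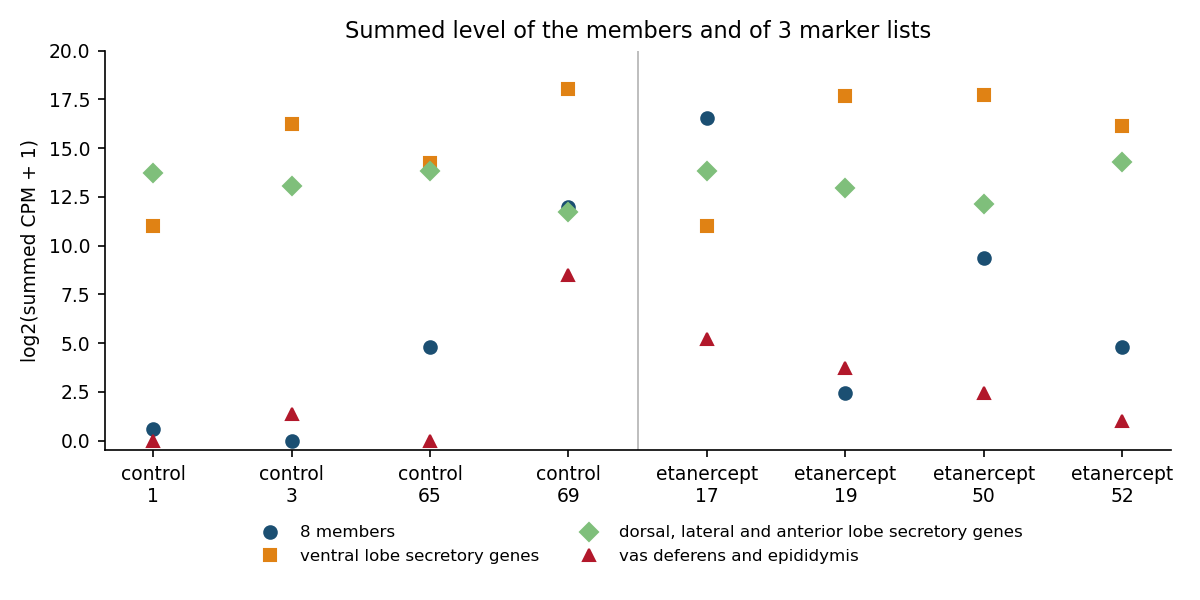
Summed level of the 8 members and of 3 marker lists in each mouse, as log2(summed CPM + 1), with control mice on the left of the line and etanercept-treated mice on the right. The members (circles) span the scale from 0 in control 3 to 97032.2 CPM in etanercept 17, where the ventral lobe genes (squares) are at 2032 CPM, their lowest.

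Other tissues were followed in the same way. The urothelial list summed to 146 CPM in etanercept 17 and 644 CPM in control 69, its lowest and highest values, and most of the second was Upk1a (626 CPM). Its genes did not go one way, since Upk1b was highest in etanercept 17 (111 CPM) and lowest in control 69 (17.3 CPM). Germ cell markers of the testis were below 1 CPM in every mouse. The smooth muscle list was 11284.7 CPM in etanercept 17 and 6094 CPM in control 69, and 3 of its 5 tested genes were higher and 0 lower at an unadjusted p of 0.05, which 6.62% of all tested genes passed in either direction. At the same threshold 4 of 4 tested adipocyte genes, 3 of 6 leukocyte genes and 2 of 4 basal epithelium genes were lower and 0 were higher. The skeletal muscle list summed to 1616 CPM in control 3, 67.5 to 518 CPM in the other control mice and 685 to 1309 CPM in the etanercept-treated mice. Of its 3 tested genes, 0 were called, with 1 lower (Tnnt3) at an unadjusted p of 0.05. The median log2 fold change was -0.89 for the leukocyte list, -0.62 for basal epithelium and -3.39 for adipocytes, and 0 genes of these lists were called. Of 7 genes of the androgen receptor and its targets, 7 were tested and 0 were called, with a median of -0.01, and they did not go one way. Pbsn, the prostate secretory protein probasin, was 7206 CPM in etanercept 17 and 1092 CPM in control 69, whereas Fkbp5, an androgen-induced co-chaperone, was 68.7 CPM in etanercept 17 and 618 CPM in control 69.

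The genes whose pattern over the 8 mice was most like the members' were ranked by Pearson's r between log2(CPM + 1) and the members' mean, over 15468 tested genes. The r ran from -0.983 to 0.954, so that values of this size occur in both directions over 8 mice. The 10 nearest had r between 0.917 and 0.954 and were Dvl3, Commd8, Gstm7, Gm21691, Gm31462, Zfp623, 4732471J01Rik, Mff, Atp6v0b and Nr6a1. Their levels in etanercept 17 were between 3.55 and 182 CPM, far below those of Svs2. Dvl3, a component of Wnt signalling, ranged from 18.3 CPM in control 1 to 38.7 CPM in etanercept 17. Gstm7, a glutathione transferase, was 25.9 CPM in etanercept 17 and 25.3 CPM in control 69 and between 4.51 and 12 CPM in the other 6 mice. None of the 10 was on the list when Spearman's rho was used or when etanercept 17 was left out.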

How the data were processed

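Prostate tissue of 4 control and 4 etanercept-treated NOD mice were measured by bulk poly(A) RNA-seq. Per the labels and the submitters' processing notes, the authors trimmed reads with fastp, mapped them to mm10 with STAR 2.6.1d, counted them with featureCounts 1.5.0-p3 and used DESeq2 1.26.0. The deposited values are whole-number counts per gene, without normalization. The annotation release and strand setting of the counting are not given in the sources used here, and without strand, reads of overlapping genes on opposite strands cannot be told apart. Total counts were between 13760669 and 25178942 per mouse.

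All 8 columns were mapped to a mouse by animal number. PATE genes were matched through RefSeq symbols, synonyms and positions (GRCm38.p6). Identifiers were matched to GENCODE M21 (123 of 54532 unmatched, with 0.0133% of counts). The counts were fitted with edgeR 4.0.16 under R 4.3.3, using TMM factors (0.917 to 1.1), the quasi-likelihood test and the filterByExpr filter (minimum 10), with Benjamini-Hochberg adjustment over all genes tested. Reported levels are CPM on TMM-scaled library sizes, and levels between genes were compared per kilobase of exon. The standard error is the log2 fold change divided by the square root of F. Wilson intervals are at a confidence level of 95%. The labels do not say whether the mice shared a litter or cage.

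Alternatives were DESeq2 1.42.0, RLE factors, library size alone, factors computed without the 8 members, a robust fit, a filter of 1 count in all, a filter of 10 counts in each mouse, pseudocounts of 0.1 and 5, Spearman's rho and leaving out each mouse. The fit was tested on simulated data with less spread among mice than these data, so that test does not cover genes as uneven among mice as the members. Transcripts and upstream sequences were aligned globally with Biopython 1.88. The members and the gene lists were chosen with earlier results of these data known. Besides the members, genes were named as the highest in mean CPM of each list (at most 4 of a list), the 10 nearest in pattern, and any needed to explain a small count; those named outside this rule are marked. A gene of the prostate lists is not reported here and was left out of their sums and counts.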

Additional observations from a re-analysis of the deposited data

Results flagged for a closer look

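Within groups of 4 mice, the gap between the highest mouse and the next was compared with the range of the group, by Dixon's criterion at 95%. Chance passes about 1 group in 20. That rate does not hold here, since the members were proposed with these values known and the criterion is met by construction where 3 of the 4 mice have no count, as for Svs3a in both groups. Of 15 pairs of member and group with any count, 13 passed, and the members share their libraries, so these are not 13 independent results. The criterion was applied to the members alone, so 13 of 15 cannot be set against the share over all genes. In the control group, control 69 stood apart for Svs2 (2370 CPM), Svs5 (1003 CPM), Pate4 (434 CPM), Svs4 (184 CPM), Svs6 (2.95 CPM) and Svs3a (0.116 CPM, from 2 counts, which is under the floor). In the etanercept-treated group, etanercept 17 stood apart for Svs2 (69634.1 CPM), Svs5 (15495.1 CPM), Pate4 (9327 CPM), Svs4 (2563 CPM) and Svs6 (13.2 CPM), and etanercept 52 for Svs1 (1.38 CPM, from 20 counts) and Svs3a (0.484 CPM, from 7 counts).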

How the results depend on the processing

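No paired analysis was possible because the 2 groups share no animal numbers. Under 6 other settings of normalization, filter, fit or tool, the log2 fold change stayed between 4.85 and 4.96 for Svs2, 3.93 and 4.04 for Svs5, 4.38 and 4.49 for Pate4 and 3.78 and 3.89 for Svs4, and over all settings with a p the adjusted p was between 0.202 and 0.9995. With each mouse left out it ranged from -2.14 to 12.1 for Svs2, -1.97 to 11 for Svs5, -2.33 to 9.93 for Pate4 and -2.34 to 11.2 for Svs4, the lowest without etanercept 17 and the highest without control 69. DESeq2 without etanercept 17, added after the data were seen, gave -2.18, -2.01, -2.37 and -2.37 for Svs2, Svs5, Pate4 and Svs4. A minimum of 10 counts in every mouse removed all 8 members, and Svs1, Svs3a, Svs3b and Svs6 have no value in the edgeR fit. The number of genes called was 0 in every edgeR setting, 21 in DESeq2 and 15 in DESeq2 without etanercept 17, and the cause of the difference was not tested. The mean share of the members ranged from 0.000948% to 0.123% in the control group and from 0.0224% to 3.16% in the etanercept-treated group with each mouse left out. Of the 10 genes most like the members, 0 were shared with the list by Spearman's rho and 0 with the list without etanercept 17. With pseudocounts of 0.1 and 5 in place of 1, the mean log2 level of the members was higher in the etanercept-treated group in both, -0.63 and 3.38 in the control group against 1.9 and 4.53. Counts of 1 to 3 in single mice, such as those of Svs2 in etanercept 19, cannot be told from the floor at this depth.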

Other observations

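Beyond the members, the library of etanercept 17 held further genes far above their level in every other mouse. The following genes were chosen after their values were seen, as those with at least 10 CPM in a single mouse and more than 10 times the level of every other mouse. In etanercept 17 there were 17 such genes, the members Svs2, Svs5, Pate4 and Svs4 and 13 others. Among the others were Cdo1, a cysteine dioxygenase (1686 CPM, against at most 101 CPM elsewhere), Pfkfb3, a regulator of glycolysis (665 CPM, at most 46.1 CPM), Plau (351 CPM, at most 32.8 CPM), Gm17689, which RefSeq names Pate8 (196 CPM, at most 4.28 CPM), Lpo, a lactoperoxidase (23.7 CPM, at most 2.14 CPM), Ptgds, a prostaglandin D synthase (21.7 CPM, at most 0.633 CPM) and Foxi1, a forkhead transcription factor (19.2 CPM, at most 0.2 CPM). Control 69 was the second highest mouse for 7 of the 13 others (Cdo1, Plau, Gm17689, Wfdc15b, Cwh43, Lpo and Olfr1033), and for the other 6 it was a different mouse.

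In control 69 there were 2 such genes, Crisp1 (50.9 CPM) and Serpina1f (31.8 CPM, with no count in the other 7 mice). Control 3 held 24, of which the highest were Atp2a1 (355 CPM) and Myh4 (352 CPM), a calcium pump and a myosin of fast skeletal muscle, and it had no count of any member. The other 5 mice had 0 such genes.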
